A study of Danio rerio with 25 samples.

Results

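Skin of male zebrafish (Danio rerio) at 36 months of age was compared with skin at 24 months by small-RNA sequencing. The comparison used all 346 microRNA hairpin rows of the count table and the 10 libraries labelled with these ages, 5 for each, out of 25 libraries in the series. The other 15 libraries, of 6, 12 and 42 months, entered the fit for its scaling and its estimate of the spread. The strain label at 24 months was AB JxTü, with no transgene named. At 36 months it was AB JxTü with Tg(pu.1:GFP), a reporter in which the promoter of the myeloid transcription factor pu.1 drives green fluorescent protein in myeloid cells. All fish were male and no treatment was given in the labels. The fish of 6 months carried the same strain label as those of 24 months, those of 12 months added Tg(flk:mCherry) and those of 42 months Tg(wt1a:GFP), reporters named for an endothelial receptor gene and a kidney gene. Age and transgene line change together between these ages, so their shares in any difference cannot be told apart.

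MicroRNAs are short RNAs cut from hairpin precursors, and each pairs through its seed with messenger RNAs and lowers their translation or stability. Skin holds microRNAs of several cell types. In keratinocytes these are miR-203, miR-205 and the miR-200 family, in smooth muscle and fibroblast-like cells miR-143, miR-145 and miR-199, and in leukocytes miR-223, miR-142 and miR-150. MicroRNAs of skeletal muscle (miR-1, miR-133, miR-206), of red blood cells (miR-451, miR-144) and of liver and gut (miR-122, miR-192, miR-194) can mark other tissue that enters a skin sample.

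Libraries held between 1941763 and 4425709 hairpin reads. Mean totals were 3255520.0 ± 968000.0 at 24 months and 3278810.0 ± 872000.0 at 36 months (SD, n = 5 each), and the difference did not pass (exact two-sided permutation p = 0.976). Between 251 and 259 hairpins per library had at least 10 reads. No label says outright that libraries came from separate fish, so p-values measure the spread between libraries. Levels are CPM (counts scaled to library size with TMM factors), with genomic copies of a name summed. The table's dre-mir names are written here as miR. All 10 names of the epithelial list passed the filter on low counts. So did 190 of 217 names in all, so passing does not mark keratinocytes. The keratinocyte microRNA miR-205 averaged 57672 ± 31042 CPM at 24 and 43239.9 ± 8674 at 36 months. Libraries were compared in pairs within and between the ages. The median absolute log2 ratio between a pair of libraries, over names of at least 100 CPM, ran from 0.192 to 0.495 among pairs at 24 months and from 0.211 to 0.302 among pairs at 36 months. Between the ages it ran from 0.265 to 0.475. By this measure replicate 5 of 24 months was at 0.344 to 0.495 from the other libraries of its age. Replicate 3 was at 0.233 from replicate 1, 0.205 from replicate 4, 0.391 from replicate 2 and 0.495 from replicate 5. Replicate 3 of 24 months stood apart in microRNAs of liver, gut and red blood cells, with 38776 CPM of the liver and gut list, and results that rest on it are given with and without it.

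Few microRNAs passed adjustment between the ages in the main test. With copies summed, 12 of 190 names passed at an adjusted p under 0.05 in edgeR's quasi-likelihood test (6.32%), 5 of them higher at 36 months (2.63%) and 7 lower (3.68%). The higher names were miR-222b, miR-203b, miR-27c, miR-454a and miR-218a, and the lower ones were miR-206, miR-122, miR-107a, miR-107b, miR-1388, miR-22b and miR-143. At the level of single hairpins 13 of 258 passed (5.04%), 6 higher (2.33%) and 7 lower (2.71%). The sets differed in part. No single copy of miR-143, miR-27c or miR-218a passed, while miR-25, miR-462 and miR-731 passed as hairpins but not as names. MiR-25, miR-462 and miR-731 have no further copies, so their counts were the same and only the fit differed. At an unadjusted p under 0.05 in the same test there were 53 of 190 names. Of the 178 names not called 37 had a log2 change of over 0.5 in size, and their changes ran from -2.61 to 1.62. The median change over all 190 names was -0.0058. Counts of calls in the lists below are to be read beside the 6.32% called of all names.

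**Figure D1:**
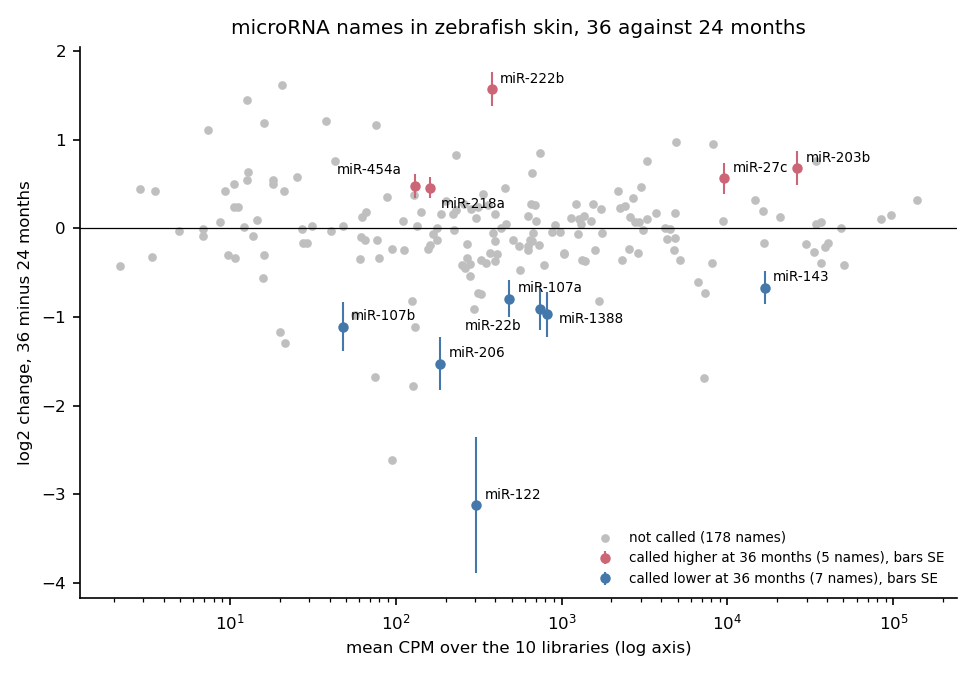
Log2 change at 36 against 24 months (vertical axis) for each of the 190 tested names against its mean CPM over the 10 libraries (horizontal log axis). Colored points with SE bars are the 12 called names, 5 higher and 7 lower at 36 months, and grey points are the 178 names not called.

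The number of calls rested on the test and on single libraries. DESeq2 called 33 names and limma-voom 25, and both sets held all 12. Without 1 library the count was 6 (24 months replicate 1), 22 (24 months replicate 2), 4 (24 months replicate 4), 7 (36 months replicate 3) or 3 (36 months replicate 4). Without the other 5 libraries it was 10 to 14. Scaling by library size alone gave 5 higher and 11 lower names. For hairpins the split of 6 higher and 7 lower became 2 and 9 with DESeq2 size factors, 1 and 16 with upper-quartile scaling and 4 and 9 by library size alone. Upper-quartile scaling shifted the median hairpin change by -0.163. Only miR-222b and miR-206 kept their call under every planned setting and without each of the 10 libraries in turn.

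MiR-222b is a relative of miR-221 and miR-222, which are known from endothelial cells and from growth control in mammals. It had the smallest p of all names. It was at 182.9, 187, 234, 181.2 and 170.4 CPM in the 5 libraries of 24 months and at 759, 415, 559, 498.9 and 613 CPM in those of 36 months. Every library of 36 months was above every library of 24 months. Its mean went from 191 ± 24.7 to 569 ± 129.2 CPM, 2.98-fold higher at 36 months (log2 change 1.57 ± 0.19, SE, adjusted p = 4.18e-06). In bulk skin, more cells that carry a microRNA and more of it per cell cannot be told apart.

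The other members of the list of miR-221 and miR-222 did not pass. MiR-222a, more abundant by far, averaged 5777 ± 1965 CPM at 24 and 4503 ± 677 at 36 months (log2 change -0.36 ± 0.19, adjusted p = 0.208). Without 24 months replicate 5 that change was -0.16, and without replicate 2 it was -0.21. MiR-221 was at 2487 ± 536 and 2710.3 ± 681 CPM (change 0.12 ± 0.17, adjusted p = 0.666). The call of 1 of 3 tested members was the same under every planned setting. Whether miR-222b differs from miR-222a in its change was not tested. At the other ages miR-222b stood at 253 ± 11.5 CPM at 6 months, 262 ± 51.2 at 12 months and 478 ± 140.7 at 42 months, so that the means of 36 and 42 months lie above those of the 3 younger ages. The lowest library of 42 months, at 267 CPM, was below 2 libraries of 12 months.

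**Figure D2:**
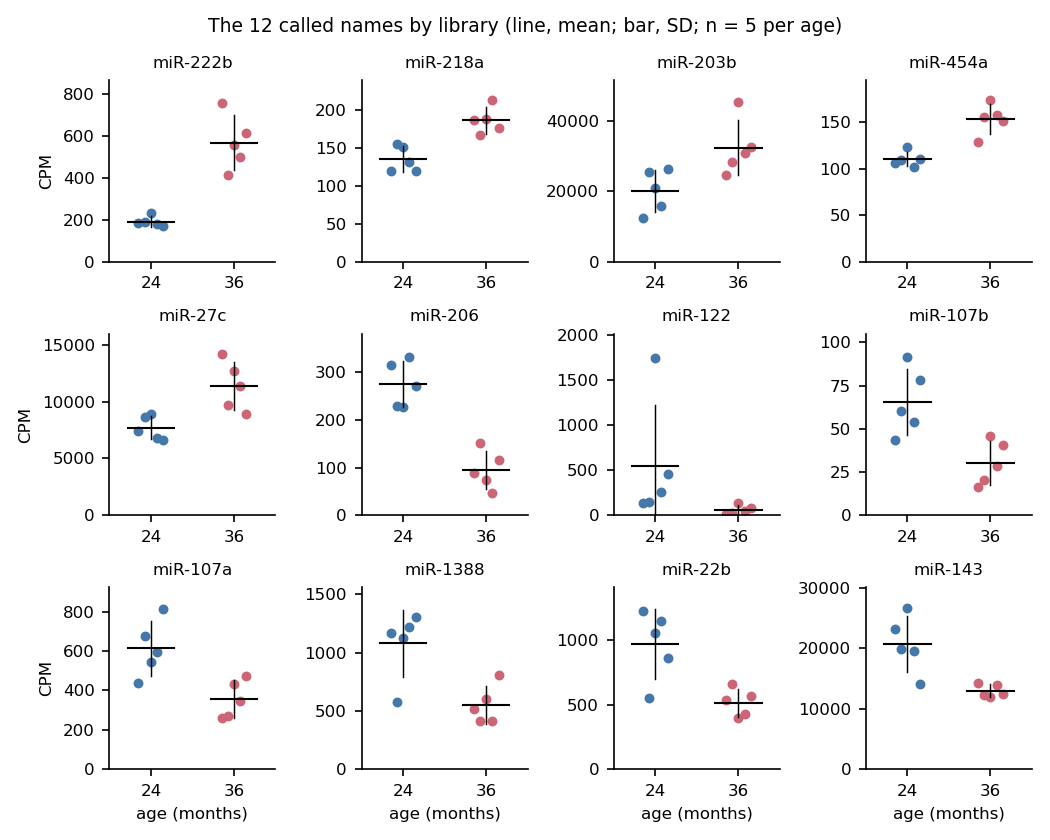
CPM of the 12 called names in each library of 24 and 36 months (points), with the mean (line) and SD (bar), n = 5 per age, each panel on a linear axis from 0, where SD bars end. Ranges do not overlap for miR-222b, miR-218a, miR-454a, miR-27c and miR-206, and 1 library of 24 months holds 1746 CPM of miR-122.

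Among keratinocyte microRNAs miR-203b was higher at 36 months. The miR-203 family is known to promote differentiation in epidermis by repressing the transcription factor p63. MiR-203b was at 12470.3, 25431, 21096, 15819 and 26328 CPM at 24 months and at 24627, 28519, 45416, 30876 and 32796 CPM at 36 months. The ranges overlapped, with 2 libraries of 24 months above the lowest library of 36 months. Means were 20229 ± 6014 CPM at 24 and 32447 ± 7864 at 36 months (log2 change 0.68 ± 0.19, SE, adjusted p = 0.0301). Its relative miR-203a, at 2512 ± 795 and 3486 ± 1151 CPM, did not pass (change 0.47 ± 0.22, adjusted p = 0.157).

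Of the 10 epithelial names 1 was called, beside 6.32% of all names. Of the 10, 7 had a positive change (5 to 9 over the settings that tested all 10). Their median change was 0.086 (-0.015 to 0.25 over those settings, negative under at least 1 of them). MiR-205 ranged from 29863 to 107968 CPM at 24 and from 34263 to 57061 at 36 months (change -0.42 ± 0.39, adjusted p = 0.557). Without 24 months replicate 5, its highest library, the change was -0.027. Members of the miR-200 family, which keeps epithelial cells from turning mesenchymal, stood at close values, with miR-200b at 433 ± 94.5 and 436 ± 80.5 CPM and miR-200c at 1096 ± 275 and 1191 ± 210.6. MiR-31 was at 171 ± 41.6 and 164 ± 41.6 CPM. The call of miR-203b was lost without filter (adjusted p = 0.0603), with only the 2 ages in the fit (adjusted p = 0.112) and without 24 months replicate 1 or 4 or 36 months replicate 3 or 4 (adjusted p from 0.0589 to 0.0878). MiR-203b averaged 31702 ± 3547 CPM in 6-month skin, 22878 ± 3915 in 12-month skin and 24039.6 ± 3712 in 42-month skin, so its mean at 36 months lay nearest to that of the youngest fish.

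Of the skeletal muscle microRNAs, miR-206 was lower at 36 months and the other 5 names did not pass. MiR-206, which is made in skeletal muscle, was at 316, 229, 228, 332 and 272 CPM at 24 months and at 88.6, 152.2, 73.6, 47.7 and 115 CPM at 36 months. The ranges did not overlap. It was 2.88-fold lower at 36 months (log2 change -1.53 ± 0.30, SE, adjusted p = 0.00351), and both of its hairpins were called (adjusted p = 0.00893 each).

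All 6 muscle names had a negative change, also under every setting tried, with a median of -0.86. Of the 6, 1 was called (1 to 3 over all alternatives), beside 6.32% of all names. MiR-133a, the most abundant member, was at 10623, 4159, 9484, 10093 and 11600.5 CPM at 24 months and at 6475, 8409.8, 4335, 2785 and 5706 CPM at 36 months (change -0.73 ± 0.32, adjusted p = 0.147). Replicate 2 of 24 months lay below 4 of the 5 libraries of 36 months. MiR-133b went from 390.2 ± 131.99 to 207 ± 81.8 CPM, miR-133c from 179 ± 81.6 to 83.0 ± 35.0 and miR-1 from 161 ± 66.2 to 91.3 ± 46.0 (adjusted p = 0.0872, 0.0583 and 0.185). Without 24 months replicate 2, miR-133b and miR-133c passed (adjusted p = 0.0411 and 0.0375), and miR-133c also without 36 months replicate 5 (0.0271). With DESeq2 miR-133c passed too (adjusted p = 0.022). In the RefSeq annotation of assembly GRCz12tu, miR-206-1 neighbours miR-133b and miR-206-2 neighbours miR-133c. The summed level of the 6 muscle names was 5261 to 13028 CPM at 24 months and 3304 to 9836 at 36 months. How much muscle entered each sample was not tested.

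MiR-143, known from smooth muscle and fibroblast-like cells, was lower at 36 months. It was at 23125, 19838, 26570.1, 19552 and 14055 CPM at 24 months and at 14282, 12299.6, 11967, 13878 and 12483 CPM at 36 months. The lowest library of 24 months fell within the range of 36 months. Means were 20628 ± 4651 CPM at 24 and 12982 ± 1029 at 36 months (log2 change -0.67 ± 0.19, SE, adjusted p = 0.0301). The call was kept in all 10 planned settings. It was lost without 24 months replicate 1, 3 or 4 or 36 months replicate 2, 3, 4 or 5 (adjusted p from 0.0517 to 0.0878).

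MiR-145, which acts with miR-143 in smooth muscle, did not pass although its ranges did not overlap. It was at 383, 323, 453, 367 and 425 CPM at 24 months and at 256, 272, 249, 182.3 and 217 CPM at 36 months (change -0.73 ± 0.25, adjusted p = 0.0611). It passed with DESeq2, limma-voom, library size alone or only the 2 ages (adjusted p from 0.00948 to 0.0400), and without 24 months replicate 2 (0.0433). The mesenchymal list of 4 names held the 1 call and a median change of -0.40. Its other members miR-199, at 19704 ± 2656 and 21559 ± 4120.4 CPM, and miR-214, at 670.0 ± 151.8 and 613 ± 97.1, did not pass (adjusted p = 0.595 and 0.734).

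MiR-122, the main microRNA of liver, had the largest change of the called names. It was at 133.3, 143.6, 1746, 258 and 457.3 CPM at 24 months and at 19.5, 27.4, 135, 53.6 and 79.5 CPM at 36 months. Replicate 3 of 24 months stood far above the rest, and 1 library of 36 months lay just above the lowest of 24 months. The log2 change was -3.12 ± 0.77 (SE, adjusted p = 0.0229). Without 24 months replicate 3 it was -1.98 and was not called (adjusted p = 0.0754), nor was it without 36 months replicate 4 (adjusted p = 0.0589).

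The same library of 24 months held 36402 CPM of miR-192 and 626 CPM of miR-194a, microRNAs of gut and liver that neighbour each other in GRCz12tu. The other libraries of 24 months held 2372 to 6602 CPM of miR-192 and 36.7 to 143.5 CPM of miR-194a, against 1190.2 to 5816 and 25.4 to 84.3 CPM at 36 months. Neither was called (changes -1.68 ± 0.64 and -1.77 ± 0.59, adjusted p = 0.0890 and 0.0583), and without that library the changes were -0.44 and -0.65. MiR-194a passed without 24 months replicate 2 (adjusted p = 0.0307). It also passed with library size alone and with DESeq2, and miR-192 passed with DESeq2. In sum, liver and gut names took 38776 CPM in that library, 2554 to 7204 in the other libraries of 24 months and 1244 to 5956 at 36 months. The list had 3 tested names, all with a negative change, and 1 call. In the same library the red-cell microRNA miR-451 was at 4922 CPM, against 993 to 2717 in the other libraries of 24 months and 889.5 to 1423 at 36 months (change -0.82 ± 0.38, adjusted p = 0.157). Without that library the change of miR-451 was -0.26 (adjusted p = 0.686). The part of these tissues in the called differences was not tested. Without that library miR-222b and miR-206 were called at changes of 1.66 and -1.59 (adjusted p = 7.41e-06 and 0.00448).

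**Figure D3:**
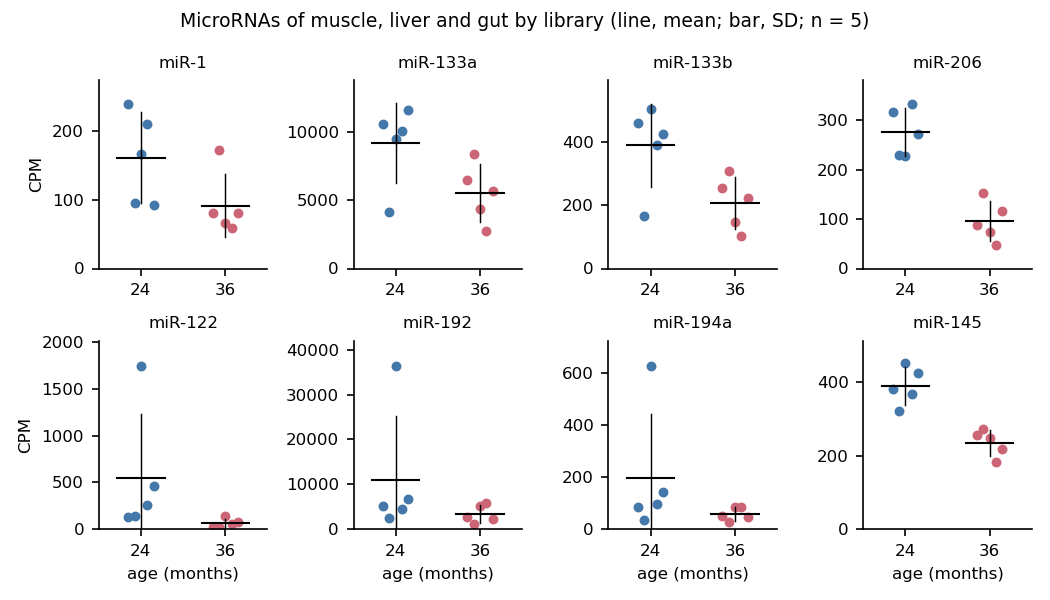
CPM of muscle (miR-1, miR-133a, miR-133b, miR-206), liver and gut (miR-122, miR-192, miR-194a) and smooth muscle (miR-145) microRNAs in each library of 24 and 36 months, with mean (line) and SD (bar), n = 5 per age. For miR-122, miR-192 and miR-194a 1 library of 24 months is highest, with 1746, 36402 and 626 CPM.

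Both miR-107 names were lower at 36 months. MiR-103 and miR-107 share their seed, lie in introns of pantothenate kinase genes and are known in mammals for effects on insulin sensitivity. MiR-107a was at 437, 677, 543, 596 and 811 CPM at 24 months and at 258, 268, 431, 343 and 471 CPM at 36 months (log2 change -0.79 ± 0.21, SE, adjusted p = 0.0229). The ranges overlapped through 1 library of 24 months and 1 of 36 months.

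MiR-107b was at 43.6, 60.2, 91.7, 54.2 and 78.3 CPM at 24 months and at 16.5, 20.7, 45.8, 28.4 and 40.9 CPM at 36 months (change -1.11 ± 0.27, adjusted p = 0.0229). Its ranges overlapped likewise. MiR-103, with 287 ± 35.2 and 255 ± 24.8 CPM, did not pass (change -0.17 ± 0.13, adjusted p = 0.479). So 2 of 3 members were called, beside 6.32% of all names. Neither call was kept with only the 2 ages in the fit (adjusted p = 0.0579 for miR-107a and 0.0603 for miR-107b). Without 36 months replicate 4 both were lost, and miR-107a also without 24 months replicate 4 or 5 or 36 months replicate 1 or 2 (adjusted p from 0.0572 to 0.0669 for miR-107a, and 0.0589 for miR-107b). Skin of 42 months stood above that of 36 months, with 602 ± 154 CPM of miR-107a and 59.5 ± 17.05 of miR-107b.

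MiR-1388 and miR-22b were also lower at 36 months. MiR-1388 was at 1168, 574, 1123, 1222 and 1306 CPM at 24 months and at 519, 414, 601, 409 and 807 CPM at 36 months (log2 change -0.97 ± 0.25, SE, adjusted p = 0.0229). All libraries of 24 months except replicate 2 were above all of 36 months. It was not called without 24 months replicate 1 or 4 or 36 months replicate 4 (adjusted p from 0.0553 to 0.0589). At 6 months it was at 1886 ± 332 CPM and at 42 months at 665 ± 214.3.

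MiR-22b was at 1229, 554, 1054, 1149.5 and 866 CPM at 24 months and at 533, 664, 396, 424 and 565 CPM at 36 months (change -0.91 ± 0.23, adjusted p = 0.0229). The ranges overlapped again through replicate 2 of 24 months. It was not called without 24 months replicate 1 or 4 or 36 months replicate 3 or 4 (adjusted p from 0.0580 to 0.0806). Its abundant relative miR-22a was at 41245 ± 9236 and 31465 ± 3514 CPM and did not pass (change -0.39 ± 0.16, adjusted p = 0.109). MiR-22a passed in 2 planned settings, library size alone and DESeq2.

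MiR-27c was higher at 36 months. It belongs to the clusters of miR-23, miR-27 and miR-24, known from blood vessels and fat cells in mammals. It was at 7438, 8652, 8893, 6834 and 6668 CPM at 24 months and at 14142, 9715, 12709.6, 11399 and 8909 CPM at 36 months (log2 change 0.56 ± 0.17, SE, adjusted p = 0.0491). The ranges came close without an overlap. With DESeq2 size factors, upper-quartile scaling, library size alone, no filter or only the 2 ages it was not called (adjusted p from 0.0616 to 0.148). It was also lost without 24 months replicate 1, 4 or 5 or 36 months replicate 1, 3 or 4 (0.0771 to 0.104).

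Of 8 tested names of the miR-23/24/27 list 1 was called (6.32% of all names were), 4 had a positive change and the median was 0.13. Between 0 and 4 were called over the planned settings. MiR-27b was at 13014 ± 524 and 16297 ± 2733 CPM, miR-24 at 293 ± 48.3 and 382 ± 74.3 and miR-23a at 1399.6 ± 274 and 1694 ± 106.9 (adjusted p = 0.0583, 0.0758 and 0.154). MiR-27b passed in 3 planned settings, DESeq2 and limma-voom among them. It also passed without 24 months replicate 2 or 36 months replicate 2 or 5. MiR-27a, at 3102 ± 710.4 and 3060.5 ± 378 CPM, did not pass (adjusted p = 0.957). The copies miR-23a-2, miR-27c-1 and miR-24-2, which neighbour each other in GRCz12tu, had changes of 0.31, 0.57 and 0.40.

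MiR-454a and miR-218a were called with small changes. MiR-454a shares its seed with miR-130 and miR-301. It was at 106.4, 109.8, 123, 102 and 110.4 CPM at 24 months and at 128.4, 156, 174, 158 and 151 CPM at 36 months (log2 change 0.48 ± 0.14, SE, adjusted p = 0.0308). Every library of 36 months was above every library of 24 months. It was not called without 24 months replicate 1 or 4 or 36 months replicate 3 or 4 (adjusted p from 0.0589 to 0.0837), or with library size alone, no filter or only the 2 ages (0.0603 to 0.0954). Its neighbours in GRCz12tu, miR-301a with a change of 0.16 ± 0.15 and miR-130a with 0.16 ± 0.12, did not pass. Of the list of miR-130, miR-301 and miR-454, 1 of 8 names was called, beside 6.32% of all names. MiR-130c, the most abundant of that list, had a change of 0.14 (adjusted p = 0.549).

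MiR-218a lies in introns of slit genes and is known from motor neurons. It was the 1 called name of 14 in the neural list, beside 6.32% called of all names. It was at 119, 156, 151, 131.5 and 120.4 CPM at 24 months and at 187, 167, 189, 213 and 176 CPM at 36 months (change 0.46 ± 0.12, adjusted p = 0.0229). These ranges did not overlap. It was not called without 24 months replicate 1 or 4 or 36 months replicate 4 (adjusted p from 0.0580 to 0.0752), or with upper-quartile scaling, library size alone, no filter or only the 2 ages (0.0537 to 0.106). The neural list had 8 positive and 6 negative changes of 14 and a median of 0.44. MiR-9 was at 168 ± 21.2 and 297 ± 95.3 CPM and miR-124 at 32.1 ± 3.65 and 54.7 ± 20.8 (adjusted p = 0.254 and 0.581). MiR-128, the most abundant member, had a change in the other direction, of -0.36 (adjusted p = 0.156). The summed level of the neural list was 1662 to 2527 CPM at 24 months and 1554 to 2121 at 36 months.

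Inflammatory and antiviral microRNAs had positive changes that did not pass in the main test. MiR-155, made by activated immune cells, was at 37.5, 60.7, 49.1, 41.5 and 47.0 CPM at 24 months and at 79.9, 106.2, 98.9, 93.8 and 151.6 CPM at 36 months. The ranges did not overlap, and the log2 change of 1.17 ± 0.37 had an adjusted p of 0.0576 (SE). It passed in 6 planned settings, DESeq2 and limma-voom among them (adjusted p from 5.3e-04 to 0.0465), and without 24 months replicate 2 (0.0411). At 6 months miR-155 was at 91.8 ± 9.65 CPM and at 12 months at 60.1 ± 13.1.

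MiR-146a, which dampens signalling from innate immune receptors, was at 2498, 2593, 6673, 2402 and 2372 CPM at 24 months and at 5051, 5282, 4511, 9927 and 7658 CPM at 36 months. Its change of 0.97 ± 0.32 had an adjusted p of 0.0583. The overlap came from replicate 3 of 24 months, the library with high liver and gut microRNAs. Without it the change was 1.39 and passed (adjusted p = 0.00464). With all 10 libraries kept, miR-146a passed in 4 planned settings, DESeq2 and limma-voom among them. MiR-146b was at 531 ± 218.8 and 956 ± 247 CPM and miR-21 at 80810.3 ± 19078 and 86992 ± 8098 (adjusted p = 0.333 and 0.825). All 4 names of the inflammation list had a positive change and a median of 0.91, with 0 calls (0 to 2 over the planned settings).

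MiR-462 and miR-731, neighbours in GRCz12tu and known from the antiviral response of fish, had changes of 0.76 ± 0.27 and 0.76 ± 0.25 (adjusted p = 0.0708 and 0.0583). MiR-462 was at 17073, 31391, 19333, 17507 and 42444 CPM at 24 months and at 35752, 43363, 46047, 38645 and 51882 CPM at 36 months. Replicate 5 of 24 months lay within the range of 36 months for both. Without it the changes were 1.04 and 1.06 and both passed (adjusted p = 0.0159 and 0.00803), and miR-462 also passed without 24 months replicate 2 (0.0433). With all 10 libraries kept, miR-462 passed in 4 planned settings and miR-731 in 6, DESeq2 and limma-voom among them. In the fit of hairpins, on the same counts, both were called (adjusted p = 0.0497 and 0.0382). At 6 months the levels were 54504 ± 11649 CPM of miR-462 and 5296 ± 909.7 of miR-731, above both ages compared here.

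Leukocyte microRNAs held 0 calls of 4 tested names, with 2 positive changes and a median of 0.018 (-0.049 to 0.094 over the alternatives). Pu.1 is active in myeloid cells, and whether the reporter line affects these microRNAs was not tested. MiR-223 of neutrophils and macrophages was at 86.0, 103.5, 141.7, 125.3 and 155.2 CPM at 24 months and at 75.5, 116, 123, 94.1 and 109 CPM at 36 months (log2 change -0.24 ± 0.35, SE, adjusted p = 0.711). MiR-142a, found in all leukocytes, was at 1868 ± 506 and 2494 ± 356 CPM, and the lymphocyte microRNA miR-150 at 396 ± 71.6 and 303 ± 63.9 (adjusted p = 0.124 and 0.215). The summed level of the list was 2294 to 3658 CPM at 24 months and 3127 to 4158 at 36 months.

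**Figure D4:**
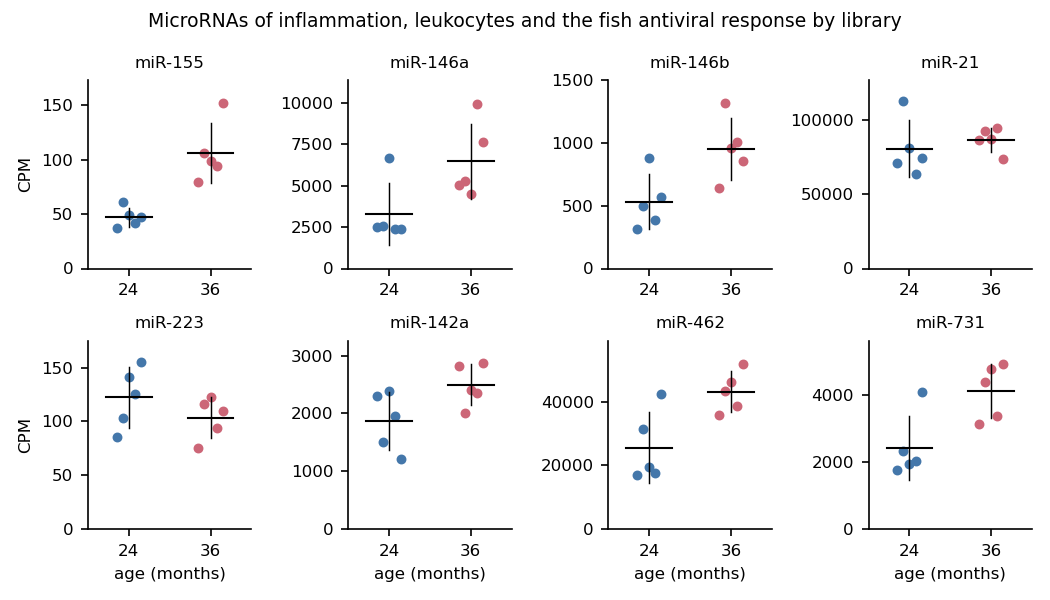
CPM of inflammation (miR-155, miR-146a, miR-146b, miR-21), leukocyte (miR-223, miR-142a) and fish antiviral (miR-462, miR-731) microRNAs in each library of 24 and 36 months, with mean (line) and SD (bar), n = 5 per age. Of these names only miR-155 has ranges that do not overlap, and none of the 8 was called.

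Ranges did not overlap for 14 of 190 names (7.37%), 10 higher (5.26%) and 4 lower (2.11%) at 36 months, and 5 of these were called. Without copies summed the ranges of 28 hairpins did not overlap (10.9%), 20 of them higher (7.75%) and 8 lower (3.1%), and among families there were 17 (13.7%), 12 higher (9.68%) and 5 lower (4.03%). Among the others, miR-34a, which p53 induces, was at 28.7, 24.6, 18.99, 17.7 and 24.8 CPM at 24 months and at 33.0, 73.4, 57.0, 35.98 and 65.7 CPM at 36 months (log2 change 1.21 ± 0.41, SE, adjusted p = 0.0612). It passed in 4 of the planned settings (adjusted p from 0.00194 to 0.0434). MiR-25 and miR-93, neighbours in GRCz12tu and related to the miR-17-92 cluster of dividing cells, were at 2367 ± 231 and 3010.2 ± 258 CPM and at 112 ± 5.33 and 145.9 ± 8.54 CPM (adjusted p = 0.0583 and 0.0611). Each passed in 4 planned settings, and miR-25 also without 24 months replicate 2 (adjusted p = 0.0411). In the fit of hairpins, on the same counts, miR-25 was called (change 0.37, adjusted p = 0.0383). MiR-460 was at 386 ± 53.5 and 531 ± 64.3 CPM (adjusted p = 0.0583) and likewise passed in 4 planned settings. MiR-301b, at 16.7 to 21.6 CPM at 24 months and 10.9 to 15.9 at 36 months, and miR-124 also had ranges without overlap (adjusted p = 0.149 and 0.581).

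MiR-2185 had the largest change among names that were not called. It was at 165, 131, 165, 145.7 and 217 CPM at 24 months and at 46.2, 2.24, 2.44, 4.15 and 78.4 CPM at 36 months (log2 change -2.61 ± 0.86, SE, adjusted p = 0.0583). The 3 low libraries of 36 months held 5 to 12 reads of it. The 2 highest libraries of 36 months were still below every library of 24 months. Without 36 months replicate 5 it passed (change -3.58, adjusted p = 0.0279). It also passed at a mean CPM of at least 100, with DESeq2 and with limma-voom. At 42 months it was at 359 ± 231 CPM and at 12 months at 66.5 ± 57.2. Replicates 1 and 2 of 12 months were also low, with 25 and 10 reads of it. MiR-725 also varied widely within 36 months, with 17556, 4047, 60.9, 23423 and 8499 CPM against 2681 to 10210.3 at 24 months (change 0.95 ± 1.15, adjusted p = 0.627). Low libraries of miR-725 occurred at other ages too. Replicate 2 of 12 months held 239 reads of it, and replicates 3 and 4 of 42 months held 89 and 73.

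**Figure D5:**
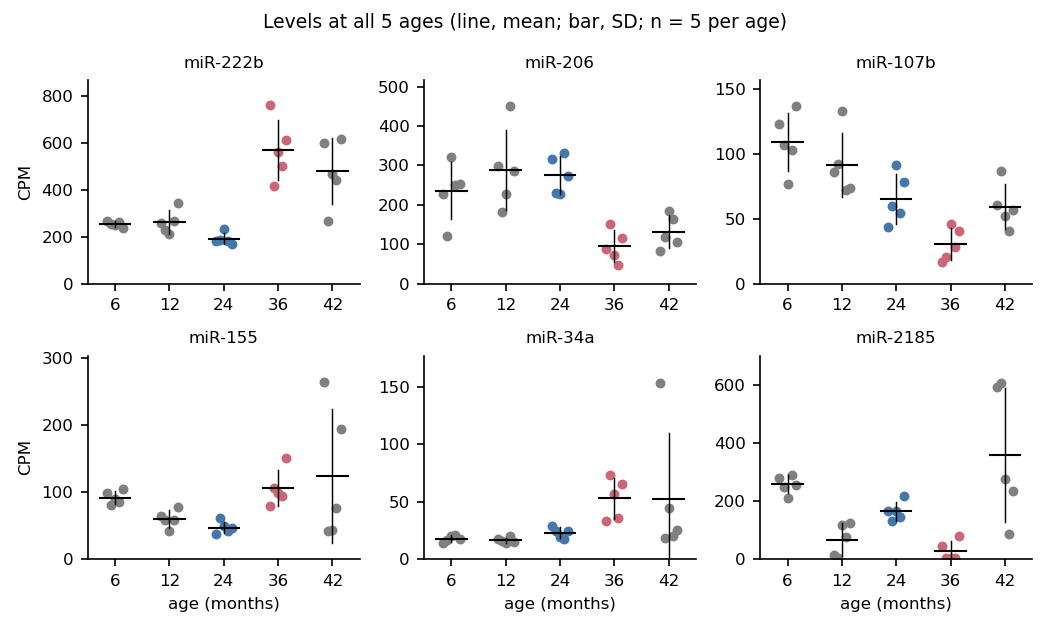
CPM of 6 names in each library at 6, 12, 24, 36 and 42 months (points, with 24 and 36 months colored), with mean (line) and SD (bar), n = 5 per age. The means of miR-222b at 36 and 42 months, 569 and 478 CPM, lie above those of the younger ages. However, 1 library of 42 months, at 267 CPM, lies below 2 of 12 months. MiR-2185 has its lowest mean at 36 months, 26.7 CPM, and is also low in 2 libraries of 12 months.

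The most abundant microRNAs did not pass in the main test. The 10 names of highest mean took 60.2% ± 3.56 of the reads of tested names at 24 months and 60.3% ± 0.389 at 36 months (SD, n = 5 each). MiR-10b of the Hox clusters took 12.5% ± 2.38 and 15.2% ± 1.46, and miR-181a took 9.13% ± 2.01 and 10.02% ± 1.26 (adjusted p = 0.256 and 0.711 for their changes). For let-7a the shares were 4.93% ± 0.886 and 4.79% ± 0.362, for miR-26a 4.37% ± 0.834 and 3.73% ± 0.349, and for the pigment-cell microRNA miR-204 4.21% ± 0.657 and 3.55% ± 0.542. MiR-26b took 3.69% ± 0.751 and 3.71% ± 0.260, and miR-10c 3.43% ± 0.405 and 3.43% ± 0.218. MiR-21 took 8.16% ± 1.44 and 8.55% ± 0.763, miR-205 5.65% ± 2.47 and 4.26% ± 0.910, and miR-22a 4.13% ± 0.431 and 3.10% ± 0.406.

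Of 31 lists 9 held a call and 21 held none among 85 tested names, counts to be read beside 6.32% of all names. The lists without a call and with at least 8 tested names were let-7 (10, median change -0.019), miR-17-92 (15, median -0.0027), miR-15/16 (8, median 0.24) and Hox cluster (8, median 0.025). Over the planned settings let-7 and miR-15/16 held 0 to 1 calls, miR-17-92 held 0 to 2 and the Hox cluster 0. In the miR-15/16 list 7 of 8 changes were positive, and miR-16c, at 1109.6 ± 87.9 and 1341 ± 161 CPM, had an adjusted p of 0.0708. MiR-16c passed in 2 planned settings and without 24 months replicate 2 (adjusted p = 0.0411). Smaller lists without a call were miR-30 (5 names, median -0.29), miR-99, miR-100 and miR-125 (5, -0.050), the miR-183 cluster (3, 0.025), miR-181 (3, 0.17), miR-29 (2, -0.16), miR-26 (2, -0.045), miR-101 (2, -0.16), miR-148 with miR-152 (2, 0.013) and miR-132 with miR-212 (2, -0.031). The most abundant member of such lists did not pass, among them miR-92a at 31321 ± 10670.7 and 27745 ± 3290.0 CPM, miR-30d at 8043 ± 2864 and 5303 ± 722, miR-101a at 9157 ± 2062 and 9696 ± 1227, miR-100 at 4555 ± 428 and 5122 ± 423 and miR-126a of blood vessels at 5137 ± 1137 and 4328 ± 729.6 (adjusted p = 0.651, 0.121, 0.836, 0.549 and 0.524). With library size alone miR-30d passed (adjusted p = 0.0480). Changes of miR-29a, miR-132 and miR-148, likewise the most abundant of their lists, were -0.20, -0.19 and 0.079 (adjusted p = 0.488, 0.627 and 0.787). Among marker lists without a call were erythroid (2, -0.59), endothelial (2, -0.26), cartilage (2, -0.25) and pigment (1, -0.20). The erythroid median lay between -0.75 and -0.026 over the alternatives. Over the alternatives that tested all members, the median changed sign in 12 of 30 lists, those of miR-17-92, let-7, Hox, epithelial, leukocyte, the miR-183 cluster, miR-26, miR-29, miR-101, miR-99 with miR-100 and miR-125, miR-148 with miR-152 and miR-132 with miR-212. No name of the early-embryo miR-430 list passed the filter.

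Copies of a name moved alike. Of 45 names with at least 2 tested copies 39 had copies whose log2 changes lay within 0.2 of each other. The widest spread was that of miR-124, from 0.47 to 0.99 over 6 copies. Copies can share reads and are not independent measurements. Summed by microRNA number, 20 families passed (16.1% of those tested), 12 higher (9.68%) and 8 lower (6.45%) at 36 months. Families with the smallest p were miR-206, miR-122, miR-1388, miR-107 and miR-145 among the lower ones and miR-203, miR-731, miR-462, miR-155 and miR-430 among the higher ones (log2 changes of -1.48, -3.08, -0.92, -0.75 and -0.68, and of 0.73, 0.85, 0.84, 1.22 and 1.70). These calls were not all stable. Without single libraries in turn the miR-145 family was called in 0 of 10 fits, miR-155 in 2, miR-430 in 4 and miR-203, miR-462 and miR-731 in 6 each. The families miR-145, miR-155, miR-462 and miR-731 hold the same counts as the names, which did not pass (adjusted p = 0.0611, 0.0576, 0.0708 and 0.0583). The family count also moved, with 2 to 11 calls without each library in turn, 7 with DESeq2 size factors (2 higher, 5 lower), 22 with upper-quartile scaling (0 higher, 22 lower) and 13 with library size alone (4 higher, 9 lower). The last 2 shifted the median family change by -0.320 and -0.104. The miR-430 family, known from the clearance of maternal messages in the early embryo, rests on 2 to 12 reads per library at 24 months and 5 to 36 at 36 months.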

How the data were processed

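Small-RNA libraries were made from total RNA of skin with the TruSeq small RNA kit, per the labels' protocols. The authors deposited 1 table of raw read counts per hairpin, 346 rows for 25 libraries. Per the submitters' processing notes, which give no order, SAMtools 1.3.1-9, BWA 0.7.12-r1039, Trimmomatic 0.36 and CASAVA 1.8.4 were used. How the counting step worked, with which hairpin reference and treatment of shared reads, was not given in the sources used here. Columns were matched to samples by title and ages taken from the labels. Replicates are numbered in accession order, which names libraries only.

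Counts were fitted with edgeR 4.0.16 in R 4.3.3 (TMM scaling, filterByExpr with a minimum count of 10 by age, quasi-likelihood F test). All 25 libraries and 5 ages were in 1 fit, with the contrast of 36 minus 24 months and Benjamini-Hochberg adjustment over all features tested at 0.05. SE is the log2 change divided by the square root of F. Features were hairpins (258 of 346 passed the filter), names with copies summed (190 of 217) and families by number. Of the rows 38 were 0 in every library. DESeq2 1.42.0, limma 3.58.1, other scalings and filters, smaller fits and each library left out were the alternatives. Library totals were compared with exact two-sided permutation tests, whose smallest p is 0.00794. Totals of 1941763 to 4425709 reads leave names of low level with few reads. MiR-2185 had 10 reads in the deepest of the 10 libraries (36 months replicate 2) and 356 in the shallowest (24 months replicate 3). These libraries differ in age, and whether its reads follow the totals was not tested.

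The members and the 31 lists were chosen with earlier results of these data known. The names given in the text were those called with ranges that do not overlap (up to 15 per direction) and the 10 of highest mean CPM. Each list's called names and its most abundant member were given too, as were the 5 called families of smallest p per direction. Last came the 10 names of smallest p per direction among those not taken by the first rule. The names miR-725, miR-301b and miR-124 and list members beside a called one were added after their values were seen. MiR-146b, miR-223 and miR-150, of lists without a call, were likewise given outside these rules. Neighbouring hairpins (at most 10000 bases apart) were taken from RefSeq's annotation of GRCz12tu, in which 340 of 346 rows matched by name. Copies and near-identical members may share reads.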

Additional observations from a re-analysis of the deposited data

Results flagged for a closer look

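Of 114 groups of 5 libraries looked at, 11 held a library that stood apart from the other 4 by Dixon's criterion, a rule that chance meets in about 1 of 20 groups. At 24 months 4 microRNAs were highest by far in replicate 3 and 1 more modestly so. MiR-122 was at 1746 CPM there against at most 457.3 in the other libraries, miR-192 at 36402 against 6602, miR-194a at 626 against 143.5 and miR-146a at 6673 against 2593. MiR-222b was at 234 against 187 CPM, below every library of 36 months.

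Replicate 2 of 24 months was lowest for miR-133a, with 4159 CPM against at least 9484 in the others, and for miR-1388, with 574 against at least 1123. Replicate 5 of 24 months was highest for miR-30d, with 13006.0 against at most 7644 CPM, and for miR-731, with 4093 against at most 2322. Replicate 1 of 36 months was highest for miR-140, with 657 against at most 456 CPM. At 24 months 1 library had 286 hairpins with at least 1 read, against at most 278 in the others.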

How the results depend on the processing

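The calls for miR-222b and miR-206 held under all alternatives run, and each of the other 10 called names lost its call when at least 1 library was left out. For hairpins, against 13 calls, the count was 25 at a mean CPM of at least 100, 38 with DESeq2, 30 with limma-voom, 24 with robust estimation and 30 in a fit lacking the 42-month group. Leaving out single libraries gave 5 to 18. For names, against 12, it was 22, 33, 25 and 20 at that CPM, with DESeq2, with limma-voom and in that smaller fit, 8 without a filter, and 3 to 22 when single libraries were left out. For families, against 20, it was 7 with DESeq2 size factors, 13 with library size alone, 10 without a filter, 13 at a mean CPM of at least 100, 12 with only the 2 ages, and 2 to 11 without each library. The cause was not tested.

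Of the 54 names picked by the rule for named microRNAs, 6 changed sign, and other names given beside them were not counted. For let-7a (0.0093) the change was -0.0086 with DESeq2 size factors and with DESeq2, -0.021 with upper-quartile scaling, -0.039 with library size alone, -0.041 without a filter, -0.040 with only the 2 ages and -0.042 to 0.17 without each library. For miR-10c it was -0.0013 with library size alone, -0.0074 with only the 2 ages and -0.024 to 0.16 without each library. For miR-182 it was 0.11 at a mean CPM of at least 100, 0.039 with limma-voom and -0.13 to 0.26 without each library. Without each library it was -0.024 to 0.19 for miR-101a, -0.26 to 0.018 for miR-140 and -0.28 to 0.063 for miR-92a.

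Without each library the difference in total reads was -305153 to 308052, that in hairpins with at least 1 read 4.1 to 8.6 (8.6 without 36 months replicate 3, exact permutation p = 0.0397) and that in hairpins with at least 10 reads -0.7 to 1.3. No paired analysis was possible because the labels give the 2 ages no shared replicate numbers. Depth limits names of few reads, and strain and age cannot be told apart.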
